A study of Mus musculus with 2 samples.

Results

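Hemidesmosome and laminin-332 genes encode the anchor that fixes epithelial cells to their basement membrane. The set described here holds 9 listed genes, Col17a1, Itga6, Itgb4, Itga3, Dst, Plec, Lama3, Lamb3 and Cd151. Its probes are all non-control array probes whose RefSeq accession belongs to one of these genes. They numbered 12 probes for 9 genes, out of 20660 named genes on the array. Of the 9 genes, 8 were measured, meaning that a probe was well above background by the scanner software's flag on at least 1 array. None of these 8 genes differed by 2-fold between the Mob1DKO and the wild-type (WT) array, and Col17a1 was too faint to measure on both. Among all genes well above background on both arrays, only 2.68% differed by 2-fold. The lack of such a difference therefore does not set these 8 genes apart from other genes.

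In a hemidesmosome, the integrin alpha6 beta4 receptor spans the cell membrane together with collagen XVII and the tetraspanin CD151. Inside the cell, the plakins plectin and dystonin (BPAG1) link this complex to keratin filaments. Outside, the complex binds laminin-332, a trimer that holds the Lama3 and Lamb3 chains. Integrin alpha3, paired with beta1, is a further laminin receptor of lung epithelium. Basal cells of the airway carry typical hemidesmosomes, and alveolar epithelium also produces laminin-332 and alpha6 beta4 integrin.

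RNA came from lung epithelial cells of C57BL/6 mice aged 10 weeks, both for Mob1DKO and for WT. Each group has 1 array, so there is no replicate check and no test, and this number sets the precision. What the name Mob1DKO stands for is not in the labels. From what is known of these mice, both Mob1a and Mob1b are deleted, the genes of adaptors that switch on the Hippo kinases LATS1 and LATS2. The labels give neither the promoter that drives a deletion, nor the sex, nor the number of animals behind each RNA. The comparison bears on how loss of Hippo signalling acts on epithelial adhesion genes, among which Col17a1 is reported as a target in lung.

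The arrays differed in overall brightness. Over 55681 probes, the processed signal had its 75th percentile at 291 for Mob1DKO and 155 for WT, a shift of 0.91 on the log2 scale that scaling removes. Of 8 added spike-in RNAs, the median was 2.50-fold brighter on the WT array, so nothing can be said about RNA per cell. The brighter probe of the targeted gene Mob1b had a level of −2.98 for Mob1DKO against −0.98 for WT, 4.0-fold lower, a log2 difference that shrank to −1.13 under a model-based background correction. The single Mob1a probe differed by 0.071, or by −0.42 under that correction, and the sources used here do not say where it lies relative to a deleted part. Xist was 4.90-fold lower and the Y-linked genes Ddx3y and Eif2s3y at least 22.7-fold and 29.6-fold higher on the Mob1DKO array. Sex and genotype cannot be told apart in these arrays. Among pan-epithelial genes, all 5 were measured and none was called, while only 1 of 4 leukocyte genes with a probe and 4 of 7 endothelial genes were measured. Neither array measured Ptprc, which defines leukocytes, or Cdh5, which defines endothelium. The endothelial marker Kdr, however, had levels of 4.63 for Mob1DKO and 5.23 for WT. All 7 fibroblast and smooth muscle markers were measured too, with Dcn at 5.89 and 5.71. The markers thus do not show that the preparations were free of other cells.

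Col17a1 is the gene from which the question starts, so its promoter is shown first. The 250 bases before its listed start lie at chr19:47692043-47692292 on the minus strand of GRCm38.p6, as given by RefSeq:
Col17a1 promoter: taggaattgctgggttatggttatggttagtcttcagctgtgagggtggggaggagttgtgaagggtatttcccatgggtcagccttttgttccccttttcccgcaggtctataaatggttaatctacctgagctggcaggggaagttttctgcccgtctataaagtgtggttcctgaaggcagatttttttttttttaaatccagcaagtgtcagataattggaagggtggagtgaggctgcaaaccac
Capitals would mark the TEAD motif GGAATG or the AP-1 motif TGANTCA on either strand, and this window holds neither. TEAD factors are the DNA-binding partners of YAP and TAZ, the co-activators that Hippo signalling restrains. The sequence table matched 5 of the 9 members, with 9 promoters in all. Of these 9 windows, 1 held the TEAD motif, against 12.6% of all 32851 promoters, and 0 held the AP-1 motif, against 6.75%. The match lay in the window of the second listed Lamb3 start, 167 bases before it, on the opposite strand. The 30 bases around it are at chr1:193302064-193302093 on the plus strand, with the motif in capitals:
Lamb3 site: gaggggaccccaCATTCCcagggagctctc
A match of letters is a description of the sequence and not a binding site. Only 250 bases before each listed start were searched, so a missing match says nothing about sites elsewhere.

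Col17a1, which encodes the transmembrane collagen XVII, had 1 probe, and it gave no usable level. Its processed signal was 4.20 ± 4.22 for Mob1DKO and 11.4 ± 3.35 for WT, where the error is the scanner software's estimate for the spot. The median spot brightness was 73 over a local background of 70 for Mob1DKO and 79 over 66 for WT. Both signals lay below the faintest signal called well above background, 17.0 and 14.1 respectively. The weaker flag of the software, for a signal significantly above background, was set on the WT array and not on the Mob1DKO array. No fold is given, because neither array measured the gene. Such probes are common: 7633 named probes, 28.0% of all named probes, fell below this standard on both. Of these, 12.3% carried the weaker flag on the WT array alone and 16.2% on the Mob1DKO array alone. Had dim probes been kept, 13.3% of these would have passed 2-fold as lower and 4.13% as higher. A fall in Col17a1 RNA was therefore not detectable at this signal over background. A rise to a level well above background was not seen on the Mob1DKO array. A smaller rise cannot be judged, since the WT level of −3.77 was itself not measured.

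**Figure D1:**
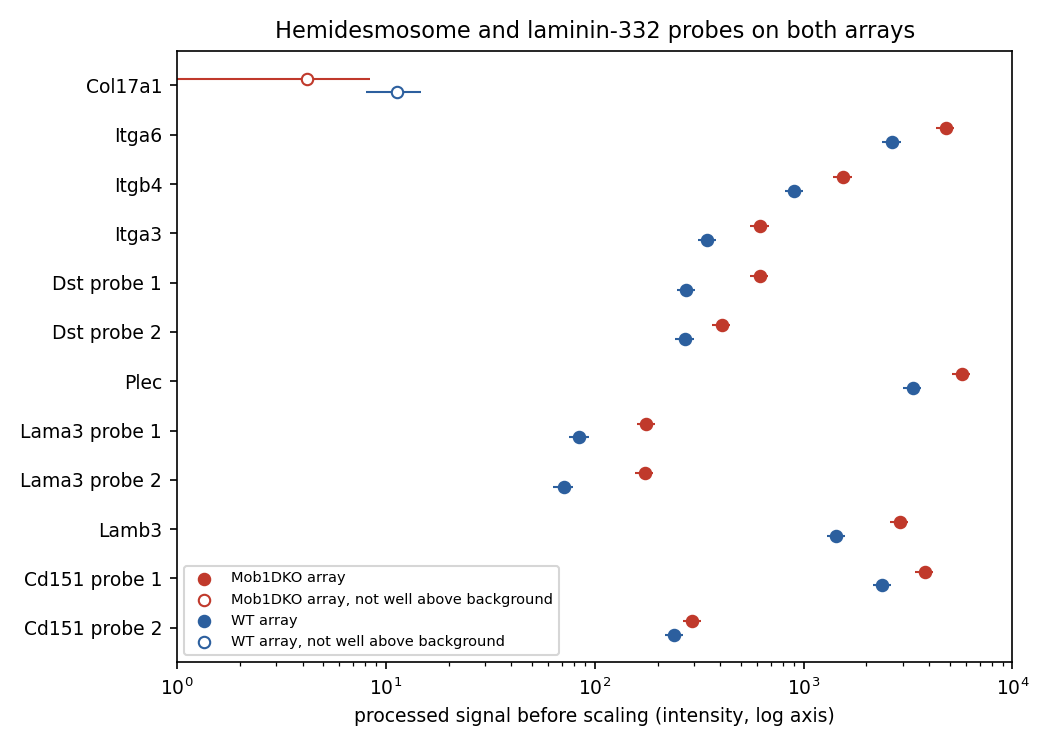
Processed signal of the 12 probes before scaling (intensity, log axis), with the Mob1DKO array in red, the WT array in blue, and bars giving the scanner software's error. The 11 filled pairs are brighter on the Mob1DKO array by 1.22-fold to 2.44-fold, against 1.88-fold for the 75th percentile of the array, and both open Col17a1 points lie below 17.

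The integrin subunits of the receptor differed by less than the scanner software's error. Itga6, the alpha6 subunit, had a processed signal of 4792 ± 479 for Mob1DKO and 2647 ± 265 for WT. After each array was scaled to its 75th percentile and put on the log2 scale, these became levels of 4.04 and 4.09. The difference, Mob1DKO minus WT, was −0.054 with an error of 0.20 from the scanner software. The Itga6 difference was thus smaller than the error of a single spot.

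Itgb4, the beta4 subunit that occurs in hemidesmosomes, gave 1543 ± 154 against 902 ± 90.3. Its levels were 2.41 against 2.54, a difference of −0.14 ± 0.20. Itga3, the alpha3 subunit, gave 618 ± 61.9 against 346 ± 34.7, or levels of 1.09 and 1.16, and differed by −0.072 ± 0.20. A narrower yardstick is the SD of 0.085 between arrays that probes printed at 10 spots showed at this brightness, which Itgb4 passed and Itga6 and Itga3 did not. Under the background correction Itga6 and Itga3 turned to 0.079 and 0.10.

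Cd151, the tetraspanin that binds the laminin-binding integrins, had 2 probes for the same transcript, both lower on the Mob1DKO array. The brighter probe gave 3792 ± 379 against 2384 ± 238, or levels of 3.70 and 3.94. It differed by −0.24 ± 0.20, and by 0.035 under the background correction. The dimmer probe gave 293 ± 29.6 against 240 ± 24.2, or levels of 0.0099 and 0.63. Its difference of −0.62 ± 0.21 was 1.54-fold, and its interval of 2 errors, −1.03 to −0.21, was the only one among the 11 measured probes that left out 0. The 2 probes differed by 0.38 from each other, so the size of the Cd151 difference depends on the probe.

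The plakins of the inner plaque showed no direction that held across probes and processing. Plec, which encodes plectin, gave 5703 ± 570 against 3332 ± 333. Its levels were 4.29 and 4.43 and it differed by −0.13 ± 0.20, or by 0.15 under the background correction. Dst, which encodes dystonin in several tissue forms, had 2 probes designed on different transcripts. The probe for NM_134448 gave 618 ± 61.9 against 275 ± 27.6, or levels of 1.08 and 0.83, a difference of 0.26 ± 0.20, or of 0.40 under the background correction. The probe for NM_133833 gave 406 ± 40.8 against 271 ± 27.3, or levels of 0.48 and 0.81, a difference of −0.33 ± 0.21. Averaged over both probes Dst stood at −0.034, the same sign as Plec.

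The Dst probes thus had opposite signs, 0.59 apart. For comparison, 3406 genes had 2 or more probes that both arrays measured, and the spread among a gene's probes had a median of 0.24 and a 90th percentile of 0.75. The Dst value lay between these values, and both intervals of 2 errors included 0. The sources used here do not say which forms of dystonin either probe detects.

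The laminin-332 chains Lama3 and Lamb3 were not called, and on the probes used their differences lay within the scanner error. Lama3, the alpha3 chain that carries the integrin-binding end, was measured by 2 probes for the same transcript. They gave 177 ± 18.1 against 84.5 ± 8.99 and 173 ± 17.7 against 71.1 ± 7.66. In scaled levels these are −0.72 against −0.87 and −0.75 against −1.12. The differences were 0.16 ± 0.21 and 0.38 ± 0.21. The first lay within, and the second just past, the SD of 0.36 that probes printed at 10 spots showed at this brightness, and the brighter probe turned to −0.026 under the background correction.

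Lamb3, the beta3 chain, gave 2881 ± 288 against 1431 ± 143. Its levels were 3.31 and 3.21, a difference of 0.10 ± 0.20. It lay above the median of all genes in all 11 ways of processing, by 0.067 to 0.26. These ways are not independent checks. The reported scaling, median scaling and no scaling gave the same 0.076 by construction, and quantile normalization and the deposited values both gave 0.067. The 4 receptor genes Itga6, Itgb4, Itga3 and Cd151 had differences of −0.24 to −0.054, below both chains. That order was seen after the values were known and was not tested. It was lost under the background correction, where Lama3 at −0.026 lay below Itga6, Itga3 and Cd151. Under this correction, with its offset of 50, the difference of Lama3, the faintest measured member, fell. The differences of all other measured members rose. This setting also started from the median spot signal and local background in place of the processed signal. Why the order was lost was not tested.

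**Figure D2:**
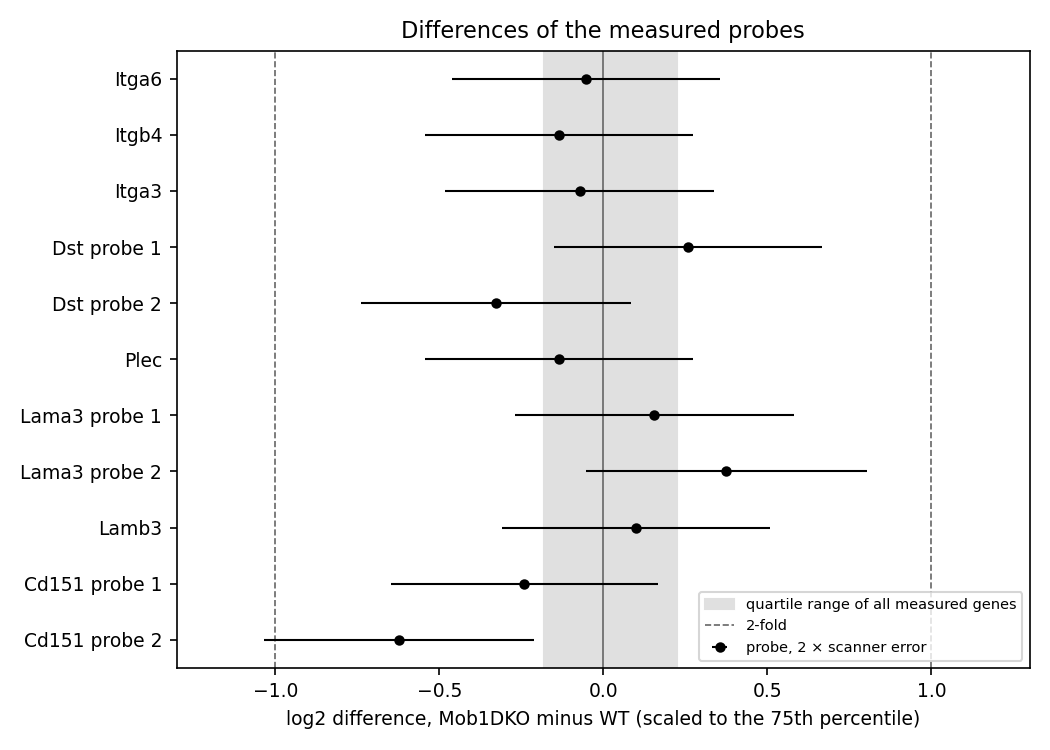
Log2 difference, Mob1DKO minus WT, of the 11 measured probes after scaling, with bars of 2 times the scanner software's error, dashed lines at 2-fold and a grey band from −0.18 to 0.22 for the quartiles of all genes. The second Cd151 probe, at −0.62, is the probe whose bar leaves out 0.

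None of the measured members passed 2-fold. For a gene with several probes, the brightest over both arrays was used, and a gene was called when it reached 2-fold and its brighter array measured it well above background. By this rule 0 of 8 measured members were higher and 0 were lower. Of 15099 measured genes, 3.79% were called higher and 2.91% lower, 6.7% in either direction. Since all 8 members were well above background on both arrays, the closer background is that of such genes, of which 2.68% were called. With 8 genes, a count of 0 cannot be told from such a share. At 1.5-fold, where 14.8% of measured genes were called, the members' count was again 0.

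The median difference over the 8 measured members was −0.063, against 0.024 over all measured genes. Of the 8 members, 3 had a difference above 0 and 5 below, while 53.3% of all genes lay above 0. The members ran from −0.24 for Cd151 to 0.26 for Dst, both just outside the quartiles of all measured genes, −0.18 and 0.22. All members but Lama3 had mean levels above the 75th percentile. For the 8437 genes at or above it and well above background on both arrays, the quartiles were narrower, −0.134 and 0.170. Itgb4 at −0.136 and Plec at −0.135 lay just outside these as well. Between 19.8% and 78.0% of all genes had a lower difference than a given member. For 10 of the 11 measured probes the interval of 2 errors lay wholly inside 2-fold. The scanner error was 0.20 to 0.21 for all 11, so this count mainly reflects the size of each difference. Probes printed at 10 spots had an SD of 0.085 above the 75th percentile, below the scanner software's 0.20. Of the 11 measured probes, 6 differed by less than 1 scanner error, while 8 differed by more than the repeat-spot SD of the brighter or fainter probes they belong to. Both leave out the spread between animals and RNA preparations.

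**Figure D3:**
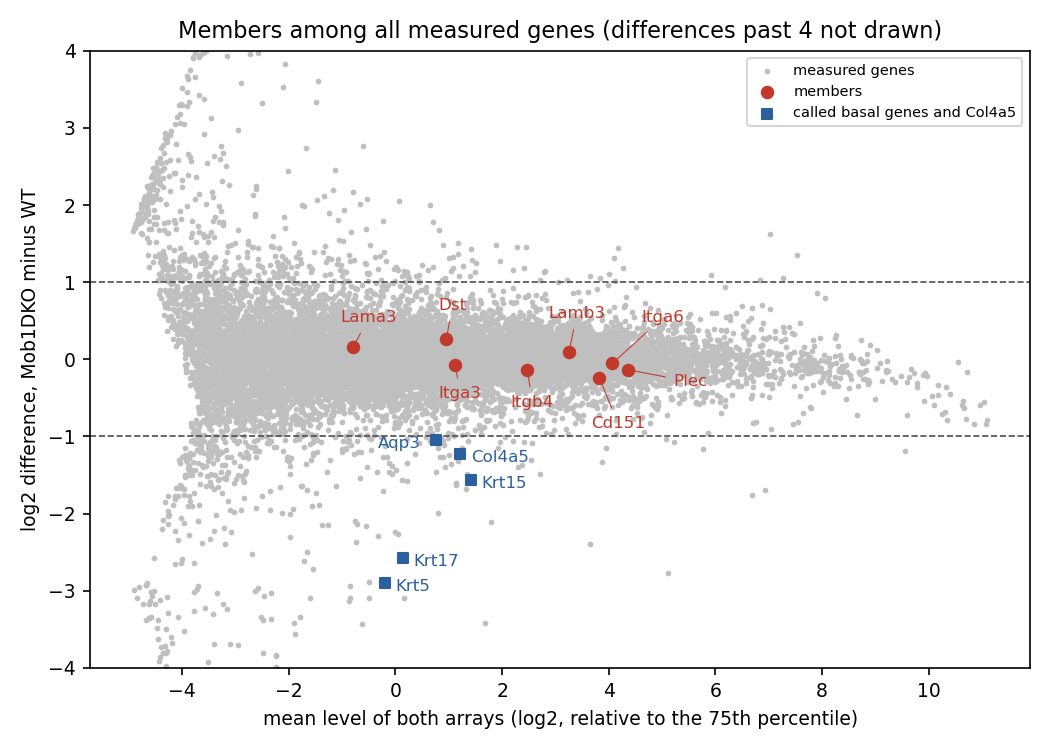
Log2 difference, Mob1DKO minus WT, against the mean level of both arrays for the measured genes (grey), with the 8 measured members in red and the called genes Krt5, Krt17, Krt15, Aqp3 and Col4a5 as blue squares. The members lie between −0.24 and 0.26, inside the dashed lines at 2-fold, and the blue genes lie below the lower line.

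Genes that work beside the hemidesmosome were described by 5 lists. Their counts stand beside the 2.68% called among all genes well above background on both arrays. The first holds basement membrane and anchoring genes. Of its 9 genes, all measured, 0 were higher and 1 was lower, with a median of 0.0093. The called gene was Col4a5, a chain of basement membrane collagen IV. Its levels were 0.60 against 1.83, a difference of −1.23 or 2.34-fold, and −0.94 under the background correction, where it was no longer called. The brightest members of this list were Lama5, an alpha chain of adult lung laminins, which differed by 0.0093, and Lamc1, a gamma chain of other laminins, which differed by 0.30.

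Keratins and plakins hold the filaments to which hemidesmosomes attach. Of 12 measured genes, 0 were higher and 2 were lower, with a median of −0.029. Krt5, a keratin of basal cells, had levels of −1.64 and 1.25 and was 7.43-fold lower, on 1 of its 2 probes, since the other was measured on neither array. Its log2 difference of −2.89 became −2.12 under the background correction. Krt15, a further basal keratin, had levels of 0.63 and 2.19 and was 2.96-fold lower. Krt18 and Krt8, the keratin pair of simple epithelia, differed by −0.13 and −0.092. Krt14, the keratin that pairs with Krt5 in basal cells, had a difference of −0.55 and was not called. The lower calls were thus Krt5 and Krt15, while Krt14, the simple keratins and the plakins of this list stayed within 2-fold.

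The 3 remaining lists held no called gene, which does not set lists of this size apart from the share of 2.68%. Of 13 measured tetraspanins and other laminin receptors, 0 were called, the median was 0.077, and the brightest, the tetraspanins Cd63 and Cd9, differed by 0.29 and 0.10. Of 12 measured proteases that act on laminin-332 or collagen XVII, 0 were called, with a median of 0.051. The brightest of these were Bmp1, a processing protease of laminin chains, at 0.29, and the membrane protease St14 at 0.12. Other Bmp1 probes differed by −0.18 and −0.13. Of 15 genes that signal at or regulate alpha6 beta4 integrin, 0 were called, with a median of −0.042. The phosphatase Ptpn11 differed by −0.077 and the GTPase Rac1 by −0.12, with a second Rac1 probe at 0.13.

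**Figure D4:**
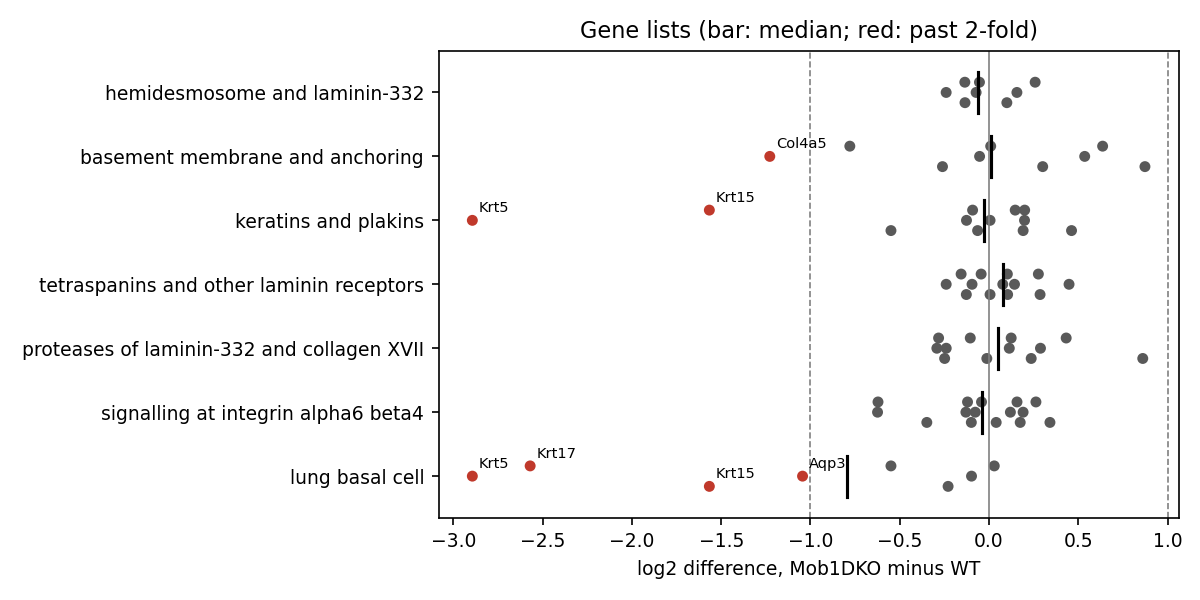
Log2 difference, Mob1DKO minus WT, of each measured gene in the 9-gene set, the 5 linked lists and the basal cell markers, with a bar at each median and called genes in red. The called genes are Col4a5, Krt5, Krt15, Krt17 and Aqp3, all lower on the Mob1DKO array.

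Basal cells are the lung cells with the most typical hemidesmosomes. On the Mob1DKO array 4 of their 8 measured markers were called lower, against 2.91% of all measured genes. Of 9 listed markers, 0 were higher, and the median over those measured was −0.80. Krt17, a keratin of basal and stressed epithelium, was 5.94-fold lower, at −1.15 against 1.42, and its log2 difference of −2.57 became −1.97 under the background correction. The water channel Aqp3 was 2.06-fold lower, at 0.25 against 1.29, and differed by −0.84 under the background correction. The other called markers were Krt5 and Krt15, given above. The brightest markers were not called: Trp63, the transcription factor p63 of basal cells, differed by −0.23 and Sfn by −0.098. Krt14 at −0.55 and the receptor gene Ngfr at 0.029 were not called either. Summed over the list, the markers came to 41.2 times the 75th percentile for Mob1DKO and 55.2 times for WT, sums that rest mostly on Trp63 and Sfn. All 7 goblet cell markers and all 4 measured red cell genes were also called lower. The part of cell numbers in the members' values was not tested, and fewer cells of a type and less RNA per cell cannot be told apart in such samples.

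**Figure D5:**
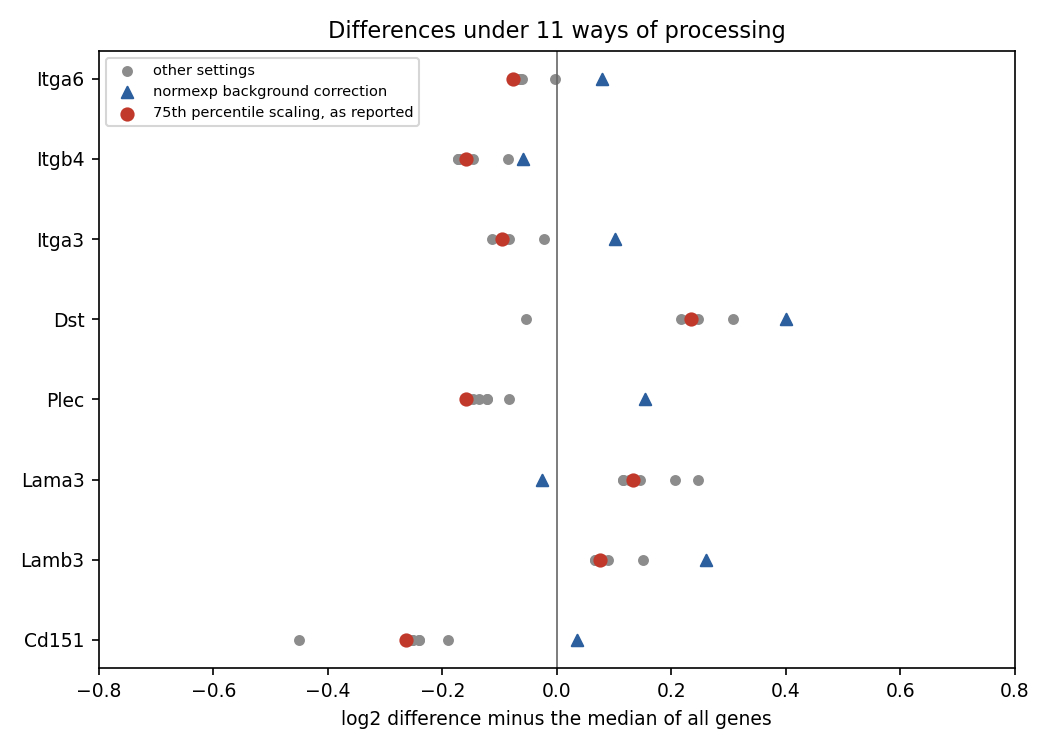
Log2 difference of each measured member minus the median of all genes, under 11 ways of processing, with the reported scaling in red, the model-based (normexp) background correction as blue triangles and the other settings in grey. The values stay between −0.45 (Cd151) and 0.40 (Dst), and the triangles of Itga6, Itga3, Plec, Cd151 and Lama3 lie on the other side of 0 from the red points.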

How the data were processed

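Amplified, Cy3-labelled RNA was put on 1 Agilent mouse array per group, per the labels' protocols. Per the file headers, the deposited scanner files give intensity values from Feature Extraction 10.7.1.1, while 9.5.1.1 is named in the submitters' processing notes. The processed signal is a background-subtracted intensity that the scanner software adjusted further within each array, with no normalization between arrays. For Itgb4 the background-subtracted signal was 1314 for Mob1DKO and 819 for WT, and the processed signal was 1543 and 902. The effect of this adjustment on the differences was not tested. The authors' deposited value table holds intensity values that matched a quantile normalization of it within 0.1% for 99.5% and 99.2% of probes, with a median of 27.3 in both columns. The 0 or 1 flags of the scanner software are other deposited values used per the file headers.

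Repeated spots were averaged per probe before taking logs, and each array's 75th percentile was subtracted from log2 of its processed signal. Probes were named by RefSeq accession in a table on GRCm38.p6 (27235 of 55681 probes), whose coordinates were not used because the arrays' grid names mm9. Members, gene lists and rules were chosen with earlier results of these data known. Named genes are the 9 members, Mob1a, Mob1b, Xist, Ddx3y, Eif2s3y, up to 4 called and the 2 brightest genes of each linked list, and up to 3 called and the 2 brightest of each marker list. Genes named beyond this were chosen after their values were seen. A lower bound sets the brighter level against the lowest level well above background on the other array. No tests were run. The calling steps were tested on simulated data. The normexp alternative (limma 3.58.1, R 4.3.3, offset 50) used the median spot signal, where the plan named the mean, and loess had a span of 0.3. Protein comparisons, also planned, were not analysed here, and a gene of a linked list and one of a marker list are not reported here.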

Additional observations from a re-analysis of the deposited data

How the results depend on the processing

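No paired analysis was possible because each group has 1 array, and no replicate could be left out. No member was called under 9 of the 11 alternatives. Without scaling, 3 members (Dst, Lama3 and Lamb3) passed 2-fold as higher and the members' median was 0.85, since the median of all genes then lies at 0.93. With no filter on dim probes, 1 member, the unmeasured Col17a1, passed as lower. Under normexp the members' median was 0.091, with every measured member higher than under the reported scaling except Lama3, the faintest. Over all named genes, the 572 higher and 439 lower calls became 6149 and 174 without scaling, 99 and 173 under normexp, 174 and 198 when both arrays had to be well above background, and 1220 and 1019 at 1.5-fold, and the lower calls became 1208 with no filter. Averaging probes in place of the brightest moved Dst to −0.034 and Cd151 to −0.43. For faint probes such as Col17a1, signal over background sets the limit.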

Other observations

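Markers of other lung cell types, some of them counted above, gave the following differences. All 7 goblet cell markers were at least 2-fold lower on the Mob1DKO array, with a median of −1.64, led by Clca1 at −5.90, Muc5b at −1.75 and Bpifb1 at −1.69. All 4 measured red cell genes, which are globins, were lower, Hba-a2 by −3.42 and Hba-a1 by −3.10 on the log2 scale. Hbb-bt and Hbb-bs, measured on the WT array alone, were at least 19.4-fold and 3.23-fold lower. No marker was called in the lists that follow. The 7 measured alveolar type 1 genes had a median of 0.28, with Aqp5 at 0.28 and Emp2 at 0.072, and the 8 alveolar type 2 genes one of −0.25, with Sftpc at −0.78 and Sftpb at −0.31. The 4 club cell genes had a median of −0.72, with Scgb1a1 at −0.84 and Cbr2 at −0.84, and the 5 ciliated cell genes one of −0.012, with Tubb4b at −0.035 and Dynlrb2 at −0.30. Under quantile normalization the type 2 median turned to 0.026 and the club median became −0.14, and the deposited value table gave the same values to this precision. For 7 fibroblast and smooth muscle genes the median was −0.27, with Dcn at 0.18 and Col1a2 at −0.27, and for 4 endothelial genes −0.017, with Kdr at −0.60 and Esam at −0.15. The leukocyte gene Coro1a differed by −0.23. The 4 Schwann cell genes, from a cell type that also carries alpha6 beta4 integrin, had a median of −0.098, with Mbp at 0.022 and Sox10 at 0.044.

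Among genes linked to the hemidesmosome that stayed under 2-fold, named here after their values were seen, several lay further from 0 than any measured member on its brightest probe. The basement membrane linker Nid2 differed by 0.87, the plasminogen activator Plat by 0.86, Nid1 by 0.64 and the anchoring fibril collagen Col7a1 by 0.54. The extracellular matrix gene Frem2 differed by −0.78, and the kinase genes Met and Prkca by −0.62 each. Of these, Nid1, Nid2, Frem2 and Plat had mean levels below the 75th percentile, where probes printed at 10 spots had an SD of 0.36.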
